A study of Homo sapiens with 68 samples.

Results

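The genes described here encode the nuclear part of the mitochondrial respiratory chain and ATP synthase, measured in A673 cells, a human Ewing sarcoma line that carries the EWS/FLI fusion. They were taken as the probe sets annotated to a single gene whose symbol began with NDUFA, NDUFB, NDUFC, NDUFS, NDUFV, SDH, UQCR, COX4 to COX8 or ATP5, together with CYC1, and the brightest probe set stood for each gene. The rule found 79 genes, on 116 probe sets, of 11882 genes that the array names one to a probe set. It used names and brightness only, and no difference between treatments. Of the 79, 31 encode subunits of complex I, 3 of complex II, 8 of complex III, 12 of complex IV and 16 of ATP synthase, and 9 are assembly factors or other genes caught by the same prefixes. SDHB, UQCRFS1 and COX4I2 were not analysed here.

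There were 68 arrays, 18 of cells given ARA-C (cytarabine, a deoxycytidine analogue), 17 given doxorubicin (a topoisomerase II poison that intercalates into DNA), 16 given puromycin (an inhibitor of protein synthesis) and 17 given the DMSO vehicle. Each compound was used at its EC50, a dose set from its effect on viability, and at 2 times that dose, namely ARA-C at 0.17 and 0.34 uM, doxorubicin at 59.88 and 119.76 nM and puromycin at 0.09 and 0.18 uM. RNA was profiled at 24 h, day 3 and day 5, with 3 arrays in each treated group except doxorubicin 119.76 nM at day 5, which had 2, and puromycin 0.18 uM at day 5, which had 1, and with 6, 5 and 6 vehicle arrays at the 3 times. All groups were of this one line, grown in serum and pyruvate, and the arrays of a group are labelled as biological replicates without saying whether they came from separate cultures, so that the p-values measure the spread between these arrays. The design text gives doxorubicin and puromycin as cytotoxic controls for ARA-C. In such bulk RNA, fewer cells of a kind and less RNA per cell cannot be told apart.

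Complex I passes electrons from NADH to ubiquinone and complex II passes them from succinate to the same carrier, complex III hands them through cytochrome c1 to cytochrome c, and complex IV gives them to oxygen. The proton gradient built on the way drives ATP synthase, whose F1 head makes ATP as the ring of c subunits turns in the membrane. Most subunits are encoded in the nucleus and imported, a small core is encoded in mitochondrial DNA, and assembly factors that are not part of the finished complexes put both together; the factors NRF1, YY1, SP1 and those of the ETS family are known to bind the promoters of many of the nuclear genes.

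Promoters are shown for 4 genes that were called lower or higher than vehicle in some treated comparisons, as the 200 bases that end at the base before the annotated transcription start (RefSeq, GRCh38.p14), read 5′ to 3′ on the strand of the gene. Capitals mark matches to the motifs that were searched. NDUFS7 (chr19:1383707-1383906, plus strand) had the largest falls and was lower than vehicle in 7 of 18 treated comparisons, NDUFB4 (chr3:120596136-120596335, plus strand) was lower in 11, COX8A (chr11:63974420-63974619, plus strand) was lower in 10, and UQCR11 (chr19:1605463-1605662, minus strand) was higher in 8.
NDUFS7: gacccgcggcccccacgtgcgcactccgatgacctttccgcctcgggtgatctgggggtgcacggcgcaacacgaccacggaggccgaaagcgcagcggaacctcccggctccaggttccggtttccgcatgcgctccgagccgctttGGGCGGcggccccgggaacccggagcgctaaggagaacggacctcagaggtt
NDUFB4: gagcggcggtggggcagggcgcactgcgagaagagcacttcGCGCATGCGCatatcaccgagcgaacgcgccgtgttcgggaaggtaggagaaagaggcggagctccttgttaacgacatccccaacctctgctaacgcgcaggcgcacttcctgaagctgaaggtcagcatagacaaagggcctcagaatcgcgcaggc
COX8A: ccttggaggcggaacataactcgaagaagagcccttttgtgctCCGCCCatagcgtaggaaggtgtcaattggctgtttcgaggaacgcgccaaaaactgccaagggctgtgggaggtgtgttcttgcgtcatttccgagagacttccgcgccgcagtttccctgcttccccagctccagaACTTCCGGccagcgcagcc
UQCR11: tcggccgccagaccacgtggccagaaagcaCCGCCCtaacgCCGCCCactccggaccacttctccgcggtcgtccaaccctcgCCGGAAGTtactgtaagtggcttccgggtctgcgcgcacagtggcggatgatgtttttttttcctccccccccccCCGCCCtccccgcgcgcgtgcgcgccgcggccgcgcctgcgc

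The NDUFB4 stretch held the NRF1 core GCGCATGCGC at 159 bases before the start, and the NDUFS7 stretch held only an SP1 box, GGGCGG, at 52 bases. COX8A held the ETS core CCGGAAGT on the other strand at 19 bases before the start, beside an SP1 box at 157 bases. UQCR11 held the ETS core at 117 bases and SP1 boxes on the other strand at 170, 159 and 42 bases. Promoter windows of 300 bases, 250 before the start and 50 after it, were found for 66 of the 79 genes and gave 82 windows, set against 35116 windows over all genes. On either strand the NRF1 core stood in 6.10% of the windows of these genes and 1.24% of all windows, the ETS core in 13.4% and 4.14%, the YY1 core AAGATGGC in 14.6% and 2.89%, the cAMP response element TGACGTCA in 4.88% and 1.85%, and the SP1 box in 62.2% and 45.0%. These matches describe letters in the windows and not bound sites.

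Most of the genes were bright on the array. The median over the subunit genes of the mean log2 signal was 12.06 for complex I, 10.37 for complex II, 12.58 for complex III, 12.96 for complex IV and 13.14 for ATP synthase, against 9.05 for the assembly factors and other genes. ATP5F1C, the gamma subunit that forms the shaft of the ATP synthase motor, averaged 13.80 and COX7B, a small complex IV subunit, 13.79, whereas NDUFS7, a core iron-sulfur subunit beside the ubiquinone site of complex I, averaged 8.73. The muscle and heart isoform genes COX7A1 and COX6A2 averaged 3.42 and 5.31, the assembly factor NDUFAF5 4.79 and the pseudogene ATP5MC2P1 5.09, near the floor of 10 signal units that was set before the log was taken. Signals of different probe sets are not comparable as amounts of RNA, so these levels say only where each probe set could show a fall.

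The arrays differed in RNA quality and in plate position in ways that ran with treatment. The log2 ratio of the 3′ to the 5′ probe set of ACTB, which grows as RNA is degraded or amplified short, ran over the 67 arrays used from 0.15 to 5.07 with a median of 1.26. At day 5 it was 2.88 to 5.07 under ARA-C 0.17 uM, 1.25 to 1.99 under ARA-C 0.34 uM, 2.13 to 2.93 under doxorubicin 59.88 nM, 4.10 to 5.00 under doxorubicin 119.76 nM, 2.10 to 2.45 under puromycin 0.09 uM and 4.13 under puromycin 0.18 uM, against 1.92 to 2.08 in the vehicle arrays of plate rows A-F and 0.53 to 0.66 in those of rows G-H. The plate rows end the array names in the study's sample list, and what was done apart between them is not stated. All ARA-C 0.34 uM arrays and the puromycin 0.18 uM array of day 5 lay in rows G-H and the other treated arrays in rows A-F, with vehicle arrays in both. The rule left out 1 puromycin 0.09 uM array of day 5, in which HBB, a red cell gene, stood at 30546 signal units against at most 105.656 in vehicle arrays. Of the markers of Ewing cells, 7 of 8 measured had medians above 500 units, and those of epithelium and striated muscle, 5 of 5 and 4 of 4, had medians under 100. Of 8 blood markers 7 were under 100, with LCP1 at 192, and of 4 fibroblast markers 2 were under 100, with DCN at 2677 and PDGFRB at 166. The fibroblast markers summed to 838 to 4232 in treated arrays, against 3053 to 4726 in vehicle arrays, and their part in the results was not tested.

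**Figure D1:**
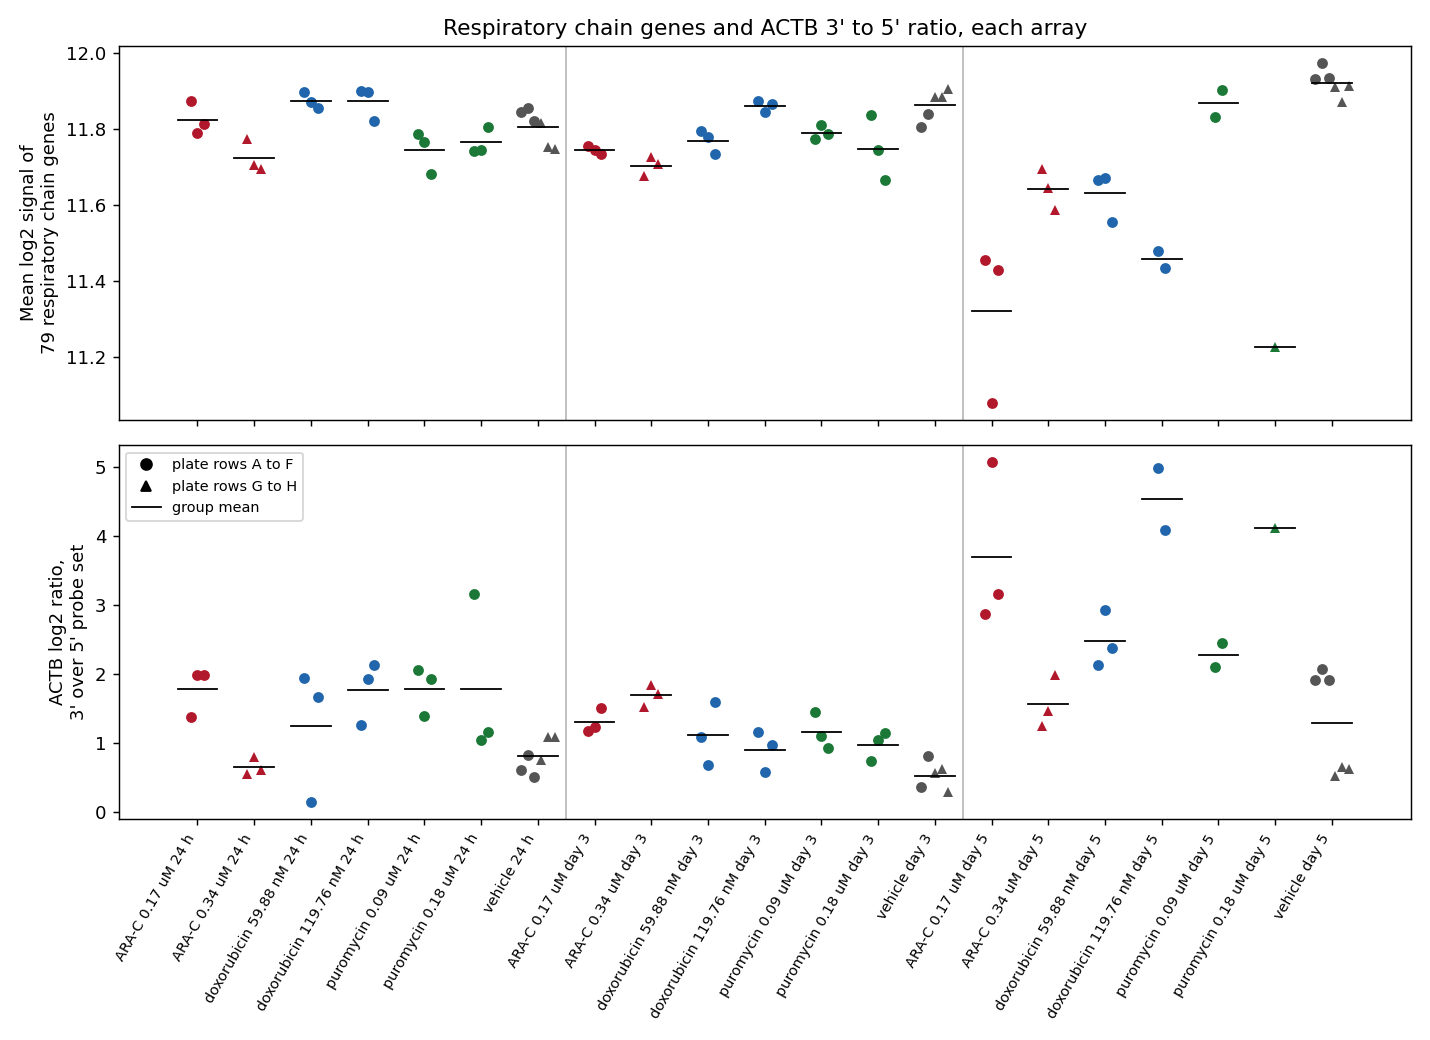
The upper panel plots, for each array, the mean log2 signal over the 79 genes and the lower panel the log2 ratio of the 3′ to the 5′ ACTB probe set, with the treated groups to the left of the vehicle arrays. Circles are arrays in plate rows A-F, triangles arrays in rows G-H, and black lines are group means. At day 5 the treated groups other than puromycin 0.09 uM lie below the vehicle arrays in the upper panel, and puromycin 0.09 uM lies below those of rows A-F. In the lower panel ARA-C 0.17 uM, doxorubicin 119.76 nM and puromycin 0.18 uM reach ACTB ratios above 4 at day 5.

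The mean log2 signal over the 79 genes at day 5 was 11.64 ± 0.05 under ARA-C 0.34 uM and 11.32 ± 0.21 under ARA-C 0.17 uM (SD, n = 3 each), 11.63 under doxorubicin 59.88 nM, 11.46 under doxorubicin 119.76 nM, 11.87 under puromycin 0.09 uM and 11.23 on the puromycin 0.18 uM array, against 11.92 in vehicle. Single vehicle arrays of day 5 averaged 11.93 to 11.97 in rows A-F and 11.87 to 11.91 in rows G-H, so that the plate parts of vehicle differed little in this mean. Among arrays of a group the mean had an SD of 0.06. At day 5 puromycin 0.09 uM, at 11.83 to 11.90, overlapped vehicle, and the other treated groups did not. Its arrays lay in rows A-F and below the vehicle arrays of those rows, so that the overlap was with those of rows G-H only. At day 3 every array under ARA-C 0.34 uM (11.68 to 11.73), ARA-C 0.17 uM (11.73 to 11.75) and doxorubicin 59.88 nM (11.74 to 11.79) lay below every vehicle array (11.81 to 11.91), and the other treated groups of day 3 and all of 24 h overlapped vehicle.

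At day 5 of ARA-C at 0.34 uM, 32 of the 79 genes fell and 4 rose (limma, Benjamini-Hochberg adjusted over 22215 probe sets), where 13.6% of all probe sets were lower and 11.4% were higher. Complex I accounted for 15 of the falls, among 31 genes, complex III for 5 of 8, complex IV for 4 of 12 and ATP synthase for 5 of 16, and 3 of the 9 assembly factors and other genes fell. The median change of the 79 genes was -0.22 on the log2 scale, against 0.00 over all probe sets and 0.02 over the 1364 probe sets with a mean log2 signal of 12 or more, of which 17.2% fell and 16.4% rose. With quantile normalization 35 genes fell and 6 rose, 31 of the 32 among the falls, and with each array centred on its median 20 fell and none rose. Against the vehicle arrays of the same plate rows alone, 30 fell and 10 rose, in a comparison of arrays with ACTB ratios of 1.25 to 1.99 under ARA-C, against 0.53 to 0.66 in vehicle, while the ratios of vehicle arrays in rows A-F were 1.92 to 2.08. With the ACTB ratio as a covariate 34 fell and 4 rose. Without replicate 3 of ARA-C 0.34 uM, 22 fell and 2 rose.

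NDUFS7 fell furthest. Its signals were 168, 146 and 103 on the 3 ARA-C 0.34 uM arrays, against 731, 755 and 579 on the vehicle arrays of rows A-F and 1435, 1312 and 1391 on those of rows G-H. Every ARA-C array was below every vehicle array, although the vehicle arrays themselves fell into a lower and a higher set by plate rows. The log2 change was -2.83 ± 0.32 (SE) with adjusted p = 3.1e-10, and within rows G-H it was -3.34, adjusted p = 2.46e-11 (limma). NDUFS1, a core iron-sulfur subunit of the module that takes electrons in, had 2217, 1818 and 2229 under ARA-C, against 2717 at the lowest, 3347 at the median and 3748 at the highest in vehicle, a change of -0.68 ± 0.11, adjusted p = 2.32e-06, with no overlap between the groups. NDUFV1, which binds NADH and flavin, changed by -0.43 ± 0.11, adjusted p = 0.00149 (limma), and NDUFV2, its iron-sulfur partner, by -0.30 ± 0.11, adjusted p = 0.0449, a call that was lost without replicate 2 of ARA-C (adjusted p = 0.184). NDUFA7, an accessory subunit, had 1376, 1174 and 1178 under ARA-C, against 2095 at the lowest, 3046 at the median and 3815 at the highest in vehicle, and changed by -1.21 ± 0.19, adjusted p = 5.77e-07 (limma). The core subunit NDUFS3 changed by -0.03 ± 0.08, adjusted p = 0.883 and NDUFA9, which holds the module near ubiquinone to the membrane arm, by -0.45 ± 0.10, adjusted p = 0.000366. Complex I thus held both the largest fall of the 79 and members that missed the threshold.

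Assembly factors of complexes I and II were among the largest falls. NDUFAF3, a complex I assembly factor, had signals of 449, 372 and 357 under ARA-C 0.34 uM, against 911, 731 and 813 in vehicle rows A-F and 1206, 1519 and 1418 in rows G-H. The groups did not overlap, and the change was -1.44 ± 0.20, adjusted p = 6.4e-08 (limma). SDHAF3, which helps to insert the iron-sulfur clusters of succinate dehydrogenase, had 132.7, 148 and 181 under ARA-C, against 343 at the lowest, 467 at the median and 525 at the highest in vehicle, and changed by -1.57 ± 0.22, adjusted p = 9.23e-08 (limma). NDUFAF1, which takes part in building the membrane arm of complex I, had 764, 955 and 775 under ARA-C, against 1146 at the lowest, 1571 at the median and 1757 at the highest in vehicle, and changed by -0.83 ± 0.19, adjusted p = 0.000489 (limma). None of the 3 measured subunits of complex II itself passed the test, with -0.32 ± 0.13, adjusted p = 0.0566 for the flavoprotein SDHA, -0.43 ± 0.19, adjusted p = 0.101 for the membrane anchor SDHC and -0.35 ± 0.21, adjusted p = 0.239 for the other anchor SDHD (limma), all of them negative.

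In complex III the catalytic gene CYC1 (cytochrome c1) had 4612, 3363 and 3486 under ARA-C 0.34 uM, against 5356, 4450.4 and 5392 in vehicle rows A-F and 8802, 8665 and 8442 in rows G-H. The highest ARA-C array lay above the lowest vehicle array, so the groups overlapped, and every ARA-C array lay below the vehicle arrays of its own plate rows. The change was -0.80 ± 0.19, adjusted p = 0.000775 against all vehicle arrays and -1.19, adjusted p = 1.03e-06 within rows G-H (limma). The core proteins changed by -0.26 ± 0.07, adjusted p = 0.00387 for UQCRC2 and -0.29 ± 0.10, adjusted p = 0.0173 for UQCRC1 (limma), and the second of these calls was lost without replicate 3 of ARA-C (adjusted p = 0.22). UQCR11 and UQCRH, a small subunit and the hinge protein, were among the 4 genes that rose, by 0.31 ± 0.11, adjusted p = 0.0403 and 0.24 ± 0.09, adjusted p = 0.0328 (limma). Both of those calls were lost without replicate 2 of ARA-C (adjusted p = 0.175 and 0.115).

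Complex IV had a median change of 0.02 on the log2 scale over its 12 genes, of which 4 fell and 1 rose. COX5B, the zinc-binding subunit, had 4501, 4699.9 and 4813 under ARA-C, against 5403 at the lowest, 5935 at the median and 6938 at the highest in vehicle, and changed by -0.36 ± 0.11, adjusted p = 0.0133, which was lost without replicate 1 of ARA-C (adjusted p = 0.0661). COX4I1, the largest nuclear subunit, changed by -0.20 ± 0.08, adjusted p = 0.0465 (limma), also lost without replicate 1 (adjusted p = 0.25), and COX5A by 0.11 ± 0.07, adjusted p = 0.349. COX6A1, the isoform of non-muscle tissue, rose by 0.27 ± 0.07, adjusted p = 0.00173 (limma), with signals of 16149, 15992 and 16725 under ARA-C, against 12737 at the lowest, 13395 at the median and 14462 at the highest in vehicle. In ATP synthase, the falls were led by ATP5F1D, the delta subunit of the rotor, with 815, 779 and 627 under ARA-C, against 1143 at the lowest, 1488 at the median and 1777 at the highest in vehicle, a change of -0.99 ± 0.15, adjusted p = 3.51e-07 (limma). ATP5MC2, a gene for the precursor of subunit c, had 4963, 4615 and 4652 under ARA-C, against 6954 at the lowest, 8462 at the median and 10409 at the highest in vehicle, and changed by -0.82 ± 0.12, adjusted p = 1.37e-07 (limma). ATP5PO, the OSCP subunit that ties the stalk to the head, changed by -0.49 ± 0.11, adjusted p = 0.000391 (limma). The catalytic head genes ATP5F1A and ATP5F1B moved by -0.13 ± 0.09, adjusted p = 0.369 and -0.16 ± 0.08, adjusted p = 0.158, and the shaft gene ATP5F1C by -0.27 ± 0.10, adjusted p = 0.0418, a call lost without replicate 1 (adjusted p = 0.172). Within rows G-H COX4I1 changed by -0.13, adjusted p = 0.256 and ATP5F1C by -0.08, adjusted p = 0.652 (limma), so that neither passed there.

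**Figure D2:**
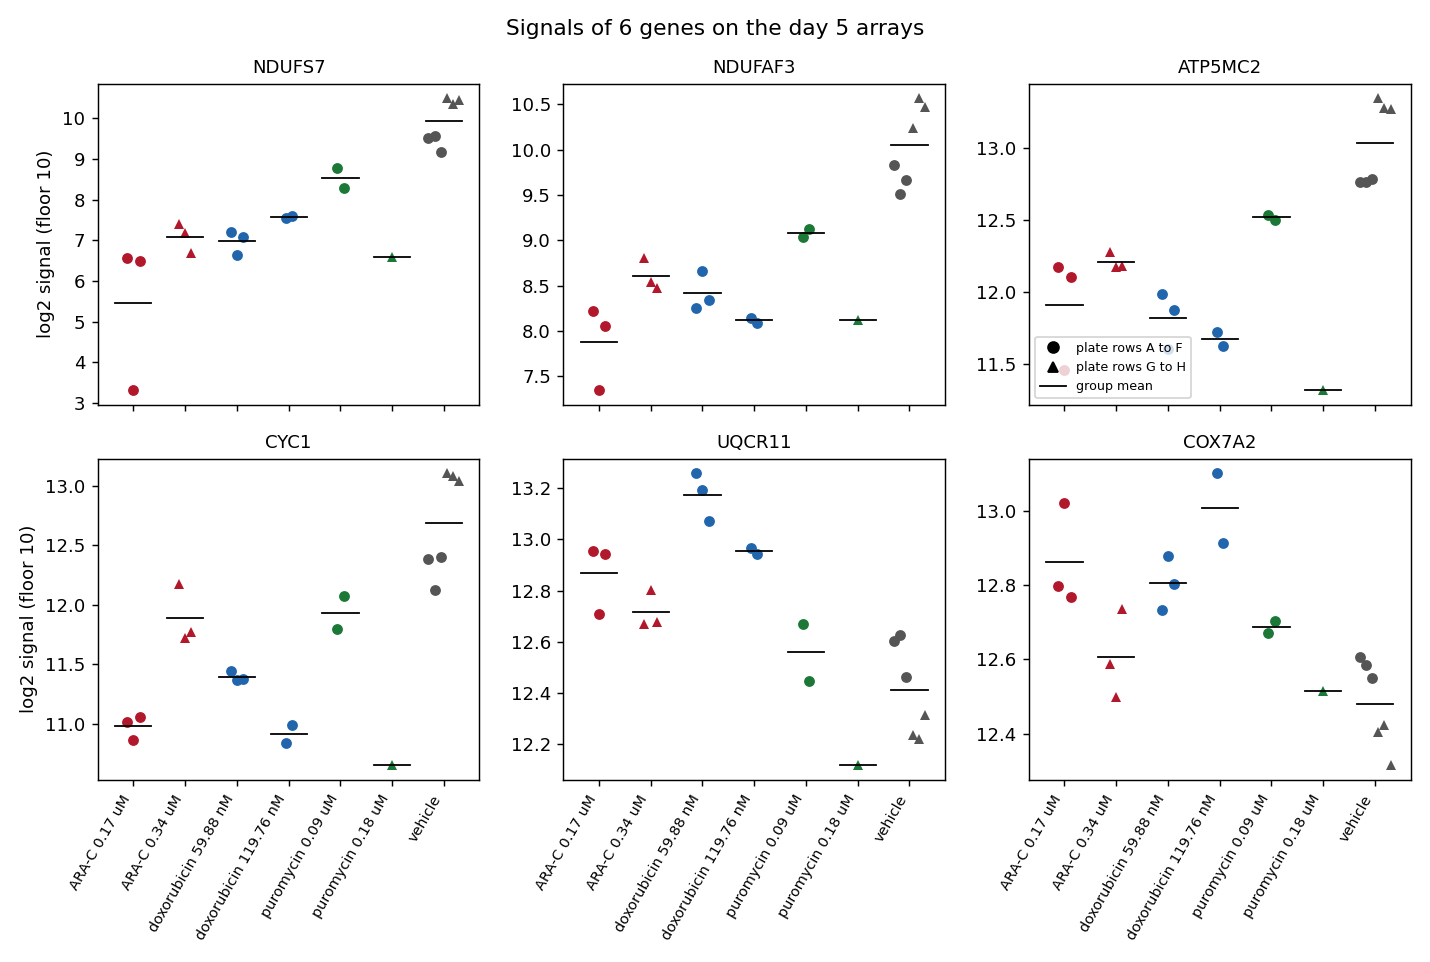
Log2 signal on each day 5 array used, for NDUFS7, NDUFAF3, ATP5MC2, CYC1, UQCR11 and COX7A2, 1 panel a gene, with the treated groups to the left of vehicle. Circles are arrays in rows A-F, triangles arrays in rows G-H and black lines are group means. NDUFS7 and NDUFAF3 lie below vehicle in every treated group, the vehicle arrays of CYC1 split by plate rows, and the group means of UQCR11 lie higher under doxorubicin and ARA-C than in vehicle.

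At the lower ARA-C dose, 0.17 uM, 47 genes were lower at day 5 and 10 were higher, where 38.0% of all probe sets were lower and 10.3% higher, and the median was -0.53 against -0.28 over all probe sets. Of the probe sets with a mean log2 signal of 12 or more, 52.0% were lower and 23.2% higher. Against the vehicle arrays of the same plate rows alone, 50 genes were lower and 4 higher. These are the arrays with ACTB ratios of 2.88 to 5.07, and with quantile normalization the split was 35 lower and 21 higher, and with each array centred on its median 29 and 20. With the ACTB ratio as a covariate it was 44 lower and 1 higher, and without the arrays of a ratio above 4 it was 45 lower and 12 higher. NDUFS7 had 95.1, 9.19 and 90.01 on the ARA-C 0.17 uM arrays, the second of them under the floor, against 579 to 1435 in vehicle, and changed by -4.46 ± 0.32, adjusted p = 3.63e-17 (limma) or by -3.39 without replicate 2. NDUFAF3 changed by -2.17 ± 0.20, adjusted p = 1.28e-13, SDHAF3 by -2.10 ± 0.22, adjusted p = 7.26e-12, NDUFAF1 by -1.87 ± 0.19, adjusted p = 1.81e-12 and NDUFA7 by -1.87 ± 0.19, adjusted p = 1.25e-12 (limma). All 3 complex II genes fell, with changes of -1.85 ± 0.19, adjusted p = 4.57e-12 for SDHC, -1.08 ± 0.13, adjusted p = 2.18e-10 for SDHA and -1.75 ± 0.21, adjusted p = 1.93e-10 for SDHD (limma), the last of which was -1.15 without replicate 2. COX5B had 2449, 1455 and 2650.1 under ARA-C 0.17 uM, against 5403 at the lowest, 5935 at the median and 6938 at the highest in vehicle, and changed by -1.50 ± 0.11, adjusted p = 1.85e-16 (limma). Its groups did not overlap.

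Under doxorubicin at day 5, 36 genes were lower and 11 higher at 59.88 nM, where 29.2% and 12.1% of all probe sets were, with a median of -0.14 against -0.15 over all probe sets. At 119.76 nM 44 were lower and 15 higher, where 37.9% and 15.8% of all probe sets were, with a median of -0.39 against -0.25. Of the probe sets with a mean log2 signal of 12 or more, 29.3% were lower and 31.5% higher at 59.88 nM, and 50.6% and 25.7% at 119.76 nM. Against the vehicle arrays of rows A-F alone the splits were 35 lower and 6 higher, and 45 and 10. With quantile normalization the splits were 34 lower and 18 higher at the lower dose, and 25 lower and 24 higher at the higher dose, the 2 arrays of which had ACTB ratios of 4.10 to 5.00, and with centring on the median 16 lower and 23 higher, and 26 and 26. With the ACTB covariate they were 31 lower and 6 higher, and 30 lower and 1 higher. NDUFS7 had 147, 99.6 and 135 at 59.88 nM, against 579 to 1435 in vehicle, a change of -2.95 ± 0.32, adjusted p = 3.73e-11 (limma), and 187 and 193 at 119.76 nM, a change of -2.35 ± 0.37, adjusted p = 2.42e-07. No doxorubicin array reached the lowest vehicle array. CYC1 had 2778, 2639 and 2658 at 59.88 nM, against 4450.4 to 8802 in vehicle, and changed by -1.29 ± 0.19, adjusted p = 9.24e-08 (limma) and, at 119.76 nM, by -1.78 ± 0.22, adjusted p = 5.44e-10. NDUFS4, an accessory subunit of the electron input module, changed by -1.88 ± 0.15, adjusted p = 1.78e-16 at 119.76 nM, with 594 and 802 on the 2 arrays, against 2073 to 2798 in vehicle. In complex IV 4 of 12 genes were higher and 2 lower at 59.88 nM, and 4 and 3 at 119.76 nM, or 2 and 3, and 4 and 2, after quantile normalization.

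Puromycin at 0.09 uM moved fewer of the genes at day 5, with 10 lower and 5 higher on its 2 arrays, where 12.1% and 5.31% of all probe sets and 4.91% and 19.2% of those with a mean log2 signal of 12 or more were, and a median of 0.03 against -0.14. Centring each array on its median instead gave 1 lower and 39 higher, and against the vehicle arrays of rows A-F alone 1 was lower and none was higher. With quantile normalization 17 were lower and 6 higher, and with the ACTB covariate 3 and 3. For this group the counts were 0 higher and 2 lower without puromycin 0.09 uM replicate 1 and 0 higher and 4 lower without puromycin 0.09 uM replicate 2. NDUFS7 had 436 and 314, against 731, 755 and 579 in vehicle rows A-F and 1435, 1312 and 1391 in rows G-H, a change of -1.39 ± 0.37, adjusted p = 0.00547 over all vehicle arrays and of -0.89, adjusted p = 0.233 within rows A-F (limma). Without replicate 2 of puromycin the first call was lost (adjusted p = 0.156). Both puromycin arrays lay below the vehicle arrays of either part. ATP5F1D was the gene still called within rows A-F, at -0.69, adjusted p = 0.00942. On the single puromycin 0.18 uM array, tested with the spread of the other groups, 49 were lower and none higher (limma; 2 higher at an unadjusted p under 0.05), where 33.8% and 12.8% of all probe sets and 52.0% and 13.6% of those with a mean log2 signal of 12 or more were, and with quantile normalization 23 were lower and 15 higher, and against the vehicle arrays of rows G-H alone 44 and 5. That array had an ACTB ratio of 4.13, and with the covariate 42 were lower and none higher. NDUFS7 read 95.6 on it, NDUFA3, an accessory complex I subunit, 618, against 2376 to 3026 in vehicle, and CYC1 1606.

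**Figure D3:**
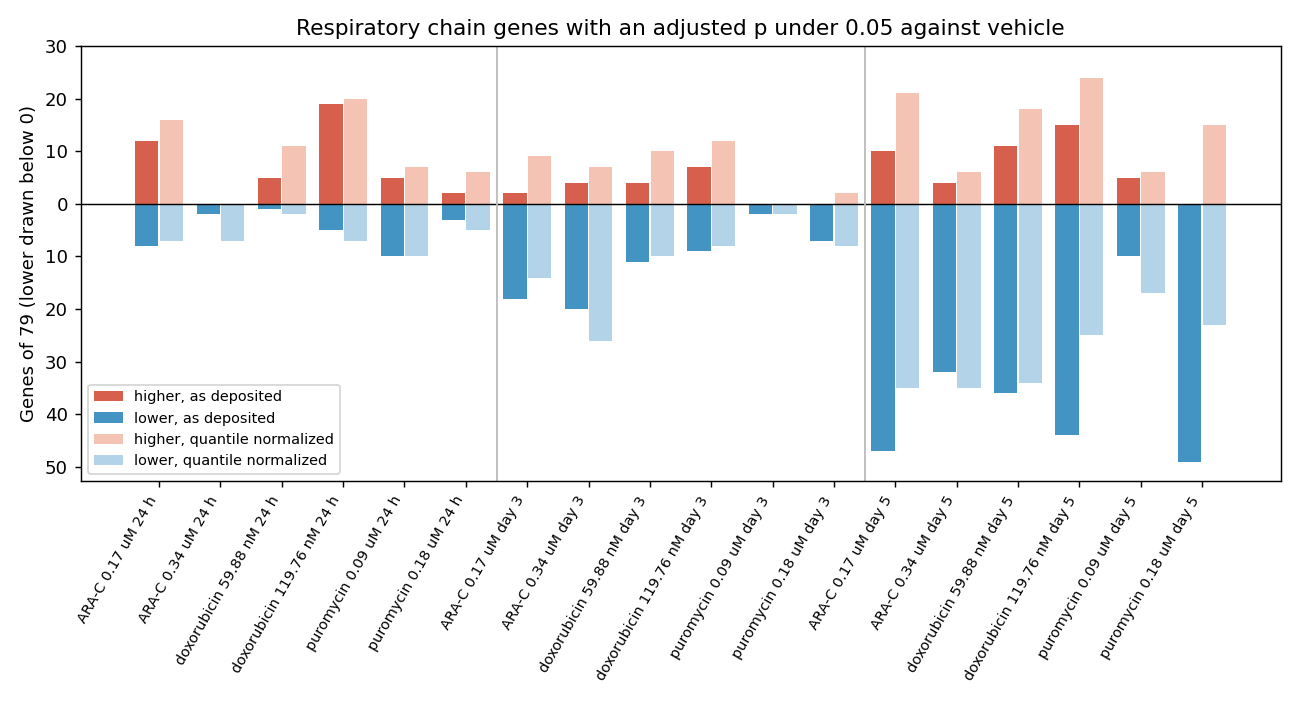
Bars give, for each treated group against vehicle of the same time, how many of the 79 genes were higher (above the line) and lower (below it) at an adjusted p under 0.05, with the signals as deposited and after quantile normalization. At ARA-C 0.34 uM day 5 the bars are 4 higher and 32 lower as deposited and 6 and 35 after quantile normalization, whereas at doxorubicin 119.76 nM day 5 they are 15 and 44 as deposited and 24 and 25 after it.

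Counted by arrays without a test, 29 of the 79 genes had every ARA-C 0.34 uM array of day 5 below every vehicle array and 4 had every one above, against 12.6% and 11.3% of all probe sets. Under ARA-C 0.17 uM the counts were 45 and 5, against 28.9% and 6.43%, under doxorubicin 59.88 nM 35 and 9, against 24.8% and 10.2%, and under doxorubicin 119.76 nM 46 and 16, against 35.4% and 14.8%. Under puromycin 0.09 uM they were 17 and 9, against 17.2% and 8.51%, which is near the shares over all probe sets, and on the puromycin 0.18 uM array 61 and 4, against 41.9% and 26.2%. The 6 day 5 comparisons share the same vehicle arrays, so a gene that stood low in several of them was measured against 1 set of values.

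At day 3 fewer genes were called than at day 5, and the assembly factor NDUFAF3 was among the largest falls. ARA-C 0.34 uM lowered 20 genes and raised 4, where 8.05% and 9.95% of all probe sets were lower and higher, with a median of -0.11 against 0.00 over all probe sets, and complex I held 8 of the falls. ARA-C 0.17 uM lowered 18 and raised 2, where 7.92% and 14.5% of all probe sets were, with a median of -0.12 against 0.28. Of the probe sets with a mean log2 signal of 12 or more, 14.6% were lower and 10.6% higher under ARA-C 0.34 uM, with a median of -0.01. Under ARA-C 0.17 uM these shares were 17.4% and 8.43%, with a median of -0.04. Replicate 3 of this group stood apart, with 0.221% of its probe sets under the floor, against 20.7% to 21.5% on the vehicle arrays of day 3. With quantile normalization the split was 14 lower and 9 higher, with each array centred on its median 39 lower and 0 higher with a median of -0.45, and against the vehicle arrays of rows A-F alone 7 lower and 1 higher. Doxorubicin lowered 11 and raised 4 at 59.88 nM, where 11.1% and 9.03% of all probe sets were, and lowered 9 and raised 7 at 119.76 nM, where 11.1% and 11.5% were, and quantile normalization gave 10 lower and 10 higher, and 8 lower and 12 higher. With each array centred on its median the day 3 splits were 20 lower and 0 higher for ARA-C 0.34 uM, 8 and 0, and 7 and 2, for the doxorubicin doses, and 1 and 1 for puromycin 0.18 uM. Puromycin lowered 2 and raised none at 0.09 uM, where 2.40% and 0.675% of all probe sets were (limma, with 0 higher and 9 lower at an unadjusted p under 0.05), and lowered 7 and raised none at 0.18 uM, where 7.13% and 4.32% were (limma, 3 higher and 15 lower unadjusted), and 8 and 2 with quantile normalization. Of the bright probe sets 1.54% were lower and 0.880% higher at 0.09 uM, and 9.02% and 4.77% at 0.18 uM. Under doxorubicin 59.88 nM these shares were 14.0029% and 10.4%, against 13.9% and 5.06% of the 79 genes. Under doxorubicin 119.76 nM they were 13.9% and 9.897%, against 11.4% and 8.86%. At either doxorubicin dose, on the signals as deposited, the 79 genes were called no more often than probe sets this bright. ACTB ratios at day 3 were 1.53 to 1.84 under ARA-C 0.34 uM, 1.18 to 1.51 under ARA-C 0.17 uM, 0.69 to 1.61 and 0.58 to 1.17 under the 2 doxorubicin doses and 0.93 to 1.46 and 0.75 to 1.15 under the 2 puromycin doses, against 0.29 to 0.81 in vehicle. Single arrays moved some of the counts. For ARA-C 0.17 uM the counts were 1 higher and 11 lower without ARA-C 0.17 uM replicate 3. For doxorubicin 59.88 nM the counts were 3 higher and 6 lower without doxorubicin 59.88 nM replicate 3. For doxorubicin 119.76 nM the counts were 5 higher and 5 lower without doxorubicin 119.76 nM replicate 3. For puromycin 0.09 uM the counts were 0 higher and 1 lower without vehicle replicates 1 or 4 or puromycin 0.09 uM replicate 3 and 0 higher and 0 lower without vehicle replicates 5 or 6 or puromycin 0.09 uM replicates 1 or 2. For puromycin 0.18 uM the counts were 0 higher and 4 lower without vehicle replicates 4 or 6 and 0 higher and 2 lower without puromycin 0.18 uM replicate 3. With the ACTB ratio as a covariate the counts were 15 lower and 5 higher for ARA-C 0.34 uM, 16 and 5 for ARA-C 0.17 uM, 11 and 5, and 9 and 8, for the doxorubicin doses, and 1 and 0, and 10 and 2, for the puromycin doses.

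The complex I assembly factor NDUFAF3 fell at day 3, in comparisons that share the 5 vehicle arrays. Its signals were 443, 451 and 334 under ARA-C 0.17 uM, 452, 391 and 335 under ARA-C 0.34 uM, 425, 434 and 388 under doxorubicin 59.88 nM and 459, 519 and 513 under puromycin 0.09 uM, against 871, 585, 716, 911 and 1125 in vehicle. In that order the changes were -1.02 ± 0.21, adjusted p = 0.000237, -1.08 ± 0.21, adjusted p = 7.8e-05, -0.98 ± 0.21, adjusted p = 0.000214 and -0.73 ± 0.21, adjusted p = 0.034 (limma). NDUFAF1, which also serves complex I assembly, fell under doxorubicin, with 672.5, 714 and 707 at 59.88 nM and 780.5, 621 and 625 at 119.76 nM, against 1151, 1397, 1155, 1167 and 1396 in vehicle, changes of -0.84 ± 0.19, adjusted p = 0.000791 and -0.89 ± 0.19, adjusted p = 0.000311 (limma). Under ARA-C 0.17 uM it changed by -0.51 ± 0.19, adjusted p = 0.0478 and under ARA-C 0.34 uM by -0.23 ± 0.19, adjusted p = 0.517. SDHAF3 fell under ARA-C, with changes of -0.98 ± 0.23, adjusted p = 0.00141 at 0.17 uM and -0.78 ± 0.23, adjusted p = 0.00972 at 0.34 uM (limma). Leaving out 1 array ended the calls of NDUFAF3 under puromycin 0.09 uM without replicate 1 (adjusted p = 0.271), NDUFAF1 under ARA-C 0.17 uM without replicate 2 (adjusted p = 0.136) and SDHAF3 under ARA-C 0.34 uM without replicate 2 (adjusted p = 0.0807).

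Among subunits, NDUFS7 had 224, 216 and 311 under ARA-C 0.34 uM at day 3, against 662, 654, 646, 627 and 670.3 in vehicle, a change of -1.40 ± 0.33, adjusted p = 0.00129 (limma), and under ARA-C 0.17 uM it had 352, 339 and 484 and changed by -0.75 ± 0.33, adjusted p = 0.0885. At both doses every ARA-C array lay below every vehicle array, and only the difference at 0.34 uM passed the test. CYC1 changed by -0.91 ± 0.20, adjusted p = 0.000393 at ARA-C 0.34 uM and -0.59 ± 0.20, adjusted p = 0.0253 at 0.17 uM (limma). ATP5MC1, another gene for subunit c, had 804, 856 and 743 under ARA-C 0.34 uM, against 1284, 1477, 1485, 1645 and 1706 in vehicle, and changed by -0.92 ± 0.17, adjusted p = 3.51e-05 (limma). SDHD changed by -0.75 ± 0.21, adjusted p = 0.00827 at ARA-C 0.17 uM and NDUFB3, an accessory complex I subunit, by -0.68 ± 0.15, adjusted p = 0.00105 (limma). Under doxorubicin 59.88 nM SDHC changed by -0.54 ± 0.20, adjusted p = 0.0429 and ATP5MC2 by -0.54 ± 0.12, adjusted p = 0.000562, and at 119.76 nM NDUFS1 by -0.47 ± 0.11, adjusted p = 0.00138 (limma). Under puromycin 0.09 uM the other fall was of COX5A, with a change of -0.26 ± 0.08, adjusted p = 0.0488, and under 0.18 uM ATP5F1D changed by -0.68 ± 0.15, adjusted p = 0.0011 and NDUFV2 by -0.51 ± 0.12, adjusted p = 0.00143 (limma). Leaving out 1 array ended the calls of CYC1 under ARA-C 0.17 uM without replicate 3 (adjusted p = 0.195), SDHC under doxorubicin 59.88 nM without replicate 3 (adjusted p = 0.784) and COX5A under puromycin 0.09 uM without replicate 1 (adjusted p = 0.627). Against the vehicle arrays of the same plate rows alone, 2 at day 3 in rows A-F, the calls of NDUFAF1, SDHAF3, CYC1 and SDHD under ARA-C 0.17 uM, SDHC under doxorubicin 59.88 nM, NDUFAF3 and COX5A under puromycin 0.09 uM and NDUFV2 under puromycin 0.18 uM did not pass, with adjusted p of 0.15, 0.0526, 0.0673, 0.0553, 0.111, 0.271, 0.177 and 0.183 in that order (limma). COX7A1 counts as a rise under ARA-C 0.17 uM at 0.94 ± 0.31, adjusted p = 0.0218, but its signals were 4.07, 3.05 and 70.7, 2 of them under the floor, and without replicate 3 the change was 0. NDUFB7 counts as a fall under puromycin 0.18 uM at -0.81 ± 0.27, adjusted p = 0.0417, and without replicate 3 the change was 0.09.

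At 24 h, on the signals as deposited and against all vehicle arrays, doxorubicin raised more of the genes than it lowered. Puromycin lowered more than it raised, and neither split held under every scaling. Against the vehicle arrays of the same plate rows alone, doxorubicin 59.88 nM raised 2 and lowered 4, and 119.76 nM raised 17 and lowered 5. In that setting puromycin raised 2 and lowered 13 at 0.09 uM, and raised 2 and lowered 6 at 0.18 uM. Doxorubicin 119.76 nM raised 19 genes and lowered 5, where 6.59% and 7.72% of all probe sets were higher and lower, with 9 of the rises in complex I and 5 in ATP synthase. Doxorubicin 59.88 nM raised 5 and lowered 1, where 2.52% and 2.75% of all probe sets were, and ARA-C 0.17 uM raised 12 and lowered 8, where 5.42% and 8.97% were. ARA-C 0.34 uM lowered 2 and raised none (limma; 2 higher and 11 lower at an unadjusted p under 0.05), where 2.21% and 6.66% of all probe sets were, and lowered 7 with quantile normalization and 26 with each array centred on its median. Its replicate 2 had 0.941% of probe sets under the floor, against 19.9% to 21.3% on the vehicle arrays. Puromycin lowered 10 and raised 5 at 0.09 uM, where 8.41% and 2.09% of all probe sets were, and lowered 3 and raised 2 at 0.18 uM, where 4.29% and 3.31% were. These are 12.7% and 6.33% of the 79 genes at 0.09 uM, and 3.80% and 2.53% at 0.18 uM, the last 2 below the shares over all probe sets. Of the probe sets with a mean log2 signal of 12 or more, 8.72% were lower and 6.01% higher at 0.09 uM. At 0.18 uM these shares were 5.06% and 3.89%. Under doxorubicin 119.76 nM they were 12.02% and 9.46%, against 6.33% and 24.1% of the 79 genes. At 59.88 nM they were 3.37% and 2.64%, against 1.27% and 6.33%. Under ARA-C 0.17 uM they were 11.9% and 10.4%, against 10.1% and 15.2%. At 0.34 uM they were 4.25% and 3.08%. Single arrays moved these counts. For doxorubicin 119.76 nM the counts were 7 higher and 3 lower without doxorubicin 119.76 nM replicate 2 and 9 higher and 4 lower without doxorubicin 119.76 nM replicate 3. For doxorubicin 59.88 nM the counts were 2 higher and 1 lower without vehicle replicate 6, 2 higher and 0 lower without doxorubicin 59.88 nM replicate 1, 7 higher and 5 lower without doxorubicin 59.88 nM replicate 2 and 1 higher and 0 lower without doxorubicin 59.88 nM replicate 3. For ARA-C 0.17 uM the counts were 7 higher and 1 lower without ARA-C 0.17 uM replicate 2 and 6 higher and 2 lower without ARA-C 0.17 uM replicate 3. For ARA-C 0.34 uM the counts were 0 higher and 0 lower without vehicle replicates 1, 4 or 5 or ARA-C 0.34 uM replicates 1, 2 or 3 and 0 higher and 1 lower without vehicle replicates 3 or 6. For puromycin 0.09 uM the counts were 0 higher and 5 lower without puromycin 0.09 uM replicate 1 and 2 higher and 5 lower without puromycin 0.09 uM replicate 3. For puromycin 0.18 uM the counts were 2 higher and 1 lower without vehicle replicates 1 or 4 or puromycin 0.18 uM replicate 1 and 1 higher and 2 lower without puromycin 0.18 uM replicate 3. Centring each array on its median changed the split to 3 higher and 5 lower for doxorubicin 119.76 nM, 2 and 4 for ARA-C 0.17 uM, 9 and 2 for puromycin 0.09 uM and 1 and 0 for puromycin 0.18 uM, and left no call for doxorubicin 59.88 nM. Quantile normalization gave 6 higher and 5 lower for puromycin 0.18 uM. ACTB ratios at 24 h were 1.26 to 2.13 under doxorubicin 119.76 nM and 0.15 to 1.95 under doxorubicin 59.88 nM, 1.39 to 1.99 under ARA-C 0.17 uM, 0.56 to 0.80 under ARA-C 0.34 uM, 1.39 to 2.06 and 1.05 to 3.17 under puromycin, against 0.51 to 1.10 in vehicle. With it as a covariate doxorubicin 119.76 nM raised 15 and lowered 3, and ARA-C 0.17 uM raised 7 and lowered 2.

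The largest rises at 24 h were of ATP5IF1 and of small subunits. ATP5IF1, the inhibitor that stops ATP synthase from running backwards, had 2709, 3216 and 3559 under doxorubicin 119.76 nM, against 1721 at the lowest, 2068 at the median and 2229.8 at the highest in vehicle, and changed by 0.64 ± 0.11, adjusted p = 1.72e-05 (limma). NDUFB1, a small complex I subunit, rose by 0.59 ± 0.10, adjusted p = 4.15e-05, UQCR11 by 0.53 ± 0.11, adjusted p = 0.000683 and ATP5F1E, the epsilon subunit of the rotor, by 0.52 ± 0.14, adjusted p = 0.00721 (limma). The same 3 genes rose under ARA-C 0.17 uM by 0.50, 0.50 and 0.54 (adjusted p = 0.00063, 0.00164 and 0.00553, limma), against the same 6 vehicle arrays. On the falling side, SDHA had 990.1, 858 and 823 under doxorubicin 119.76 nM, against 1242 at the lowest, 1396 at the median and 1725 at the highest in vehicle, and changed by -0.70 ± 0.13, adjusted p = 5.68e-05 (limma), and CYC1 changed by -0.60 ± 0.19, adjusted p = 0.0239. CYC1 also fell under puromycin 0.09 uM, with a change of -0.81 ± 0.19, adjusted p = 0.00262, and under ARA-C 0.17 uM, with one of -0.60 ± 0.19, adjusted p = 0.0238 (limma). NDUFAF3 changed by -0.96 ± 0.20, adjusted p = 0.000673 under puromycin 0.09 uM and by -0.73 ± 0.20, adjusted p = 0.0079 under ARA-C 0.17 uM (limma). NDUFB4, whose promoter is printed above, changed by -0.71 ± 0.10, adjusted p = 1.06e-06 under ARA-C 0.17 uM, -0.30 ± 0.10, adjusted p = 0.0441 under ARA-C 0.34 uM and -0.46 ± 0.10, adjusted p = 0.000708 under doxorubicin 119.76 nM (limma). Leaving out 1 array ended the calls of UQCR11 under doxorubicin 119.76 nM without replicate 2 (adjusted p = 0.0851), ATP5F1E under doxorubicin 119.76 nM without replicate 3 (adjusted p = 0.133), ATP5F1E under ARA-C 0.17 uM without replicate 3 (adjusted p = 0.051), CYC1 under doxorubicin 119.76 nM without replicate 3 (adjusted p = 0.247), CYC1 under puromycin 0.09 uM without replicate 1 (adjusted p = 0.0516), CYC1 under ARA-C 0.17 uM without replicate 2 (adjusted p = 0.151), NDUFAF3 under ARA-C 0.17 uM without replicate 3 (adjusted p = 0.0767) and NDUFB4 under ARA-C 0.34 uM without replicate 2 (adjusted p = 0.256).

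**Figure D4:**
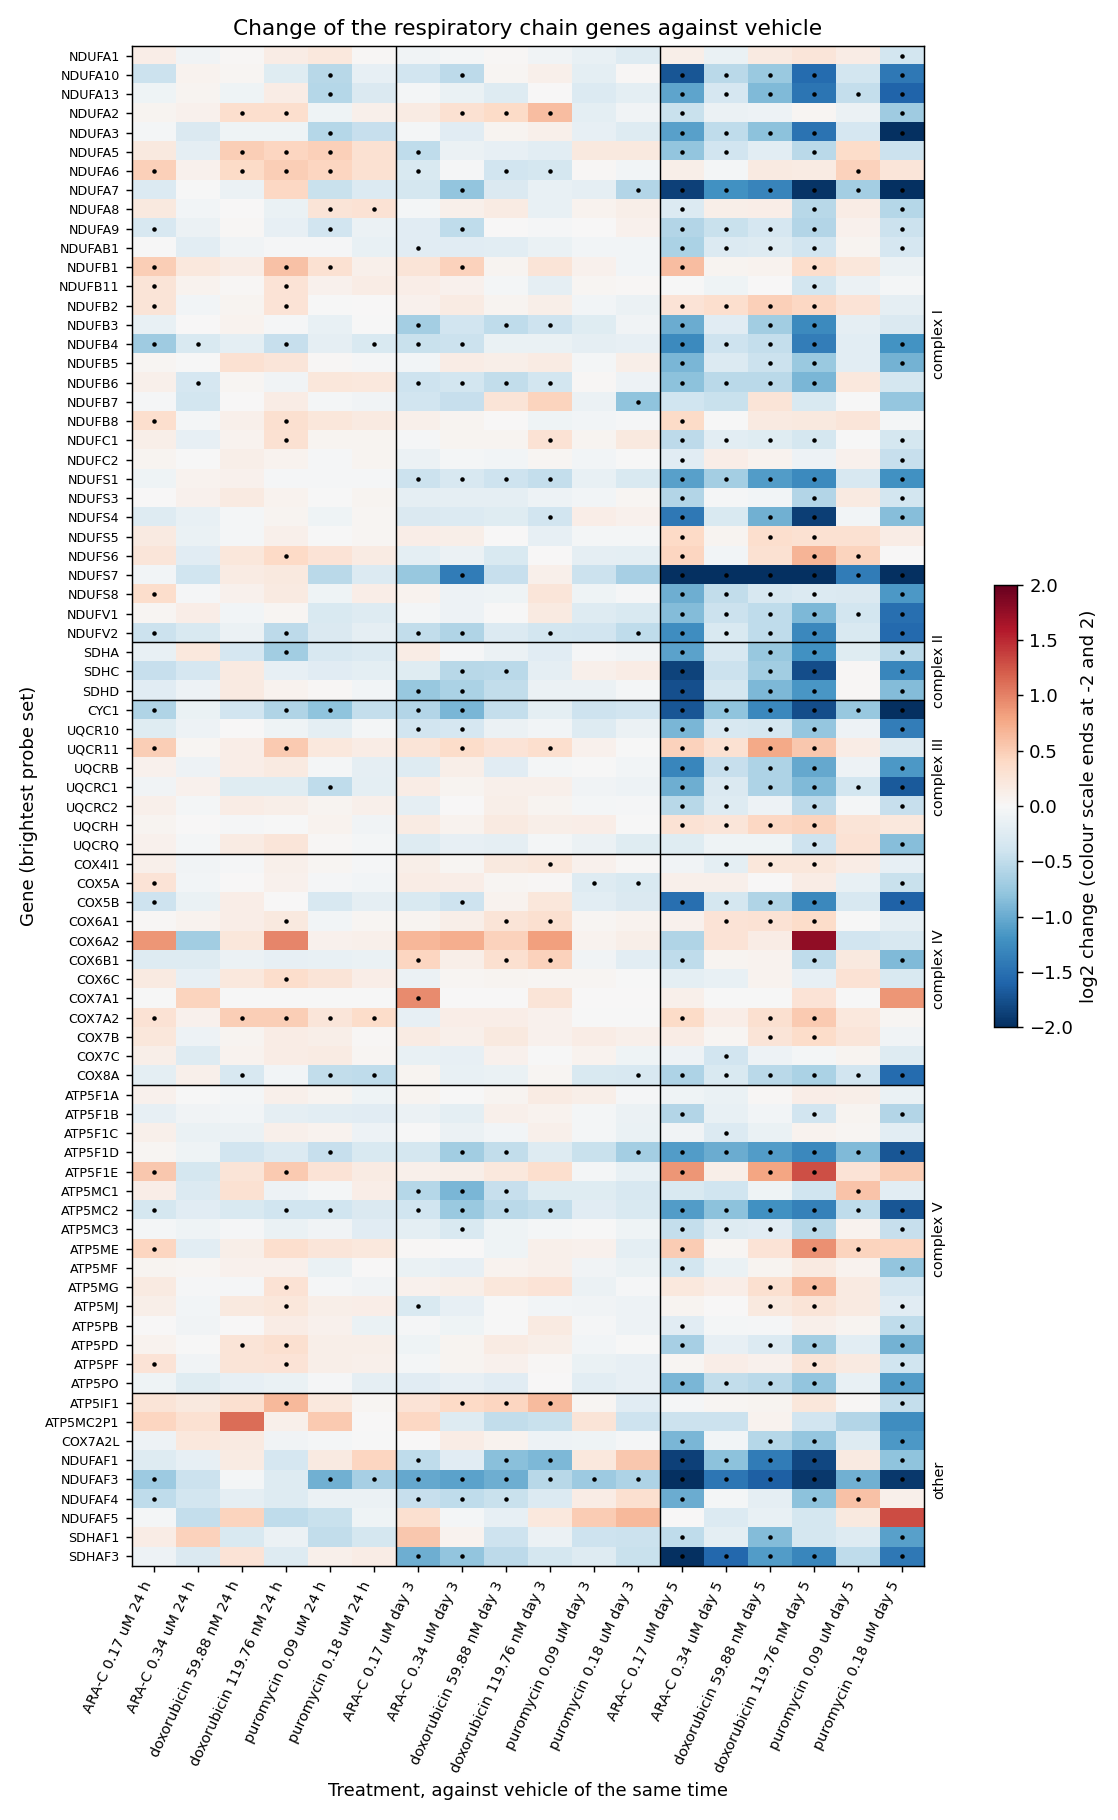
Each row is 1 of the 79 genes, ordered by complex, and each column a treated group against vehicle of the same time; colour is the log2 change, with the scale ending at -2 and 2, and dots mark an adjusted p under 0.05. The day 5 columns hold most of the dots for lower values, NDUFS7 and NDUFAF3 stand out as low across them, and rows such as UQCR11 and ATP5F1E are higher under ARA-C 0.17 uM and doxorubicin.

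From 0 to 15 of the 79 genes were higher at day 5 in the 6 treated groups, and UQCR11 and ATP5F1E were among the largest rises. UQCR11 had 9794, 9361 and 8605 under doxorubicin 59.88 nM, against 4766 at the lowest, 5368 at the median and 6325 at the highest in vehicle, and rose by 0.76 ± 0.11, adjusted p = 1.44e-07 (limma). It also rose by 0.54 ± 0.13, adjusted p = 0.000392 at 119.76 nM and 0.46 ± 0.11, adjusted p = 0.000569 under ARA-C 0.17 uM (limma), and its change at puromycin 0.09 uM was 0.15 ± 0.13, adjusted p = 0.536. ATP5F1E had 27844 and 27455 under doxorubicin 119.76 nM and 20501, 20056 and 22017 under ARA-C 0.17 uM, against 9245 at the lowest, 11481 at the median and 14131 at the highest in vehicle, with changes of 1.29 ± 0.16, adjusted p = 9.25e-10 and 0.88 ± 0.14, adjusted p = 3.51e-07 (limma). Against the vehicle arrays of rows A-F alone these changes of ATP5F1E were 1.02 and 0.61, so its vehicle level differed by plate rows. Under ARA-C 0.34 uM, against vehicle of both plate parts, ATP5F1E changed by 0.12 ± 0.14, adjusted p = 0.655 and NDUFB1 by 0.05 ± 0.10, adjusted p = 0.81 (limma). ACTB ratios were the lowest of the treated groups at day 5 in this group, and their part was not tested. ATP5ME, subunit e of the membrane part, rose by 0.91 ± 0.15, adjusted p = 5.62e-07 under doxorubicin 119.76 nM, and NDUFS6, a zinc-binding complex I subunit, by 0.68 ± 0.14, adjusted p = 6.99e-05 (limma). NDUFB2, a complex I accessory subunit, rose by 0.47 ± 0.09, adjusted p = 1.63e-05 under doxorubicin 59.88 nM and by 0.34 ± 0.09, adjusted p = 0.00259 under ARA-C 0.34 uM (limma). Against vehicle of the same plate rows alone, the changes under doxorubicin 119.76 nM were 0.67 for ATP5ME, 0.32 for NDUFS6 and 0.39 for UQCR11. In that setting NDUFB2 changed by 0.27 under doxorubicin 59.88 nM and by 0.55 under ARA-C 0.34 uM. UQCR11 there changed by 0.61 under doxorubicin 59.88 nM and by 0.30 under ARA-C 0.17 uM. All of these still passed the threshold.

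Where a subunit has isoform genes, the tissue-restricted ones were too dim to compare. COX6A1 changed at day 5 by 0.27 ± 0.07, adjusted p = 0.00173 under ARA-C 0.34 uM, 0.09 ± 0.07, adjusted p = 0.32 under ARA-C 0.17 uM and 0.29 ± 0.07, adjusted p = 0.000369 under doxorubicin 59.88 nM (limma), while its muscle counterpart COX6A2 had day 5 signals of 11.8 to 91.2 under ARA-C 0.34 uM, against 8 to 81.4 in vehicle. COX7A2, the form found in most tissues, changed by 0.13 ± 0.08, adjusted p = 0.297 under ARA-C 0.34 uM, 0.38 ± 0.08, adjusted p = 5.98e-05 under ARA-C 0.17 uM and 0.33 ± 0.08, adjusted p = 0.000737 under doxorubicin 59.88 nM. COX7A2L, a relative that takes part in joining complexes III and IV, changed by -0.06 ± 0.12, adjusted p = 0.834, -0.91 ± 0.12, adjusted p = 1.17e-08 and -0.56 ± 0.12, adjusted p = 0.000168 in the same order (limma). The 3 genes for subunit c give the same mature protein. ATP5MC2 changed by -0.82 ± 0.12, adjusted p = 1.37e-07 under ARA-C 0.34 uM and -1.21 ± 0.12, adjusted p = 1.13e-12 under doxorubicin 59.88 nM (limma), whereas ATP5MC3 changed by -0.26 ± 0.08, adjusted p = 0.0137 and -0.22 ± 0.08, adjusted p = 0.0252 and ATP5MC1 by -0.40 ± 0.16, adjusted p = 0.0653 and -0.08 ± 0.16, adjusted p = 0.769. The calls of ATP5MC3 were lost without replicate 1 of ARA-C 0.34 uM (adjusted p = 0.0744) and without replicate 3 of doxorubicin 59.88 nM (adjusted p = 0.115), and within rows G-H the change of ATP5MC3 was -0.12, adjusted p = 0.315, and differences between the 3 genes were not tested. The changes of ATP5MC1 depend on the plate rows of vehicle. Under puromycin 0.09 uM at day 5 it changed by 0.56 against all vehicle arrays and by 0.09 against rows A-F alone. The rise of COX6A1 under doxorubicin 59.88 nM was 0.07, adjusted p = 0.252 after quantile normalization. ATP5IF1 changed at day 5 by 0.05 ± 0.11, adjusted p = 0.855 under ARA-C 0.34 uM and 0.06 ± 0.11, adjusted p = 0.722 under doxorubicin 59.88 nM, and at day 3 it rose by 0.40 ± 0.11, adjusted p = 0.00752, 0.43 ± 0.11, adjusted p = 0.00328 and 0.64 ± 0.11, adjusted p = 1.21e-05 under ARA-C 0.34 uM and the 2 doxorubicin doses (limma).

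The 3 compounds were compared with each other at their EC50 doses, whose arrays all lie in rows A-F, in 9 comparisons. At 24 h ARA-C 0.17 uM differed from doxorubicin 59.88 nM in 1 gene that was higher and 2 that were lower, where 2.43% and 3.07% of all probe sets were, and from puromycin 0.09 uM in 4 and 1, where 4.74% and 1.89% were, and doxorubicin differed from puromycin in 4 and 0 (12 and 1 at an unadjusted p under 0.05, limma), where 2.58% and 0.585% were. NDUFB4 was lower under ARA-C, with log2 differences of -0.51 ± 0.12, adjusted p = 0.00428 from doxorubicin and -0.53 ± 0.12, adjusted p = 0.00163 from puromycin (limma), and NDUFAF3 was higher under doxorubicin than under puromycin by 0.92 ± 0.23, adjusted p = 0.0133. Leaving out 1 array ended the call of NDUFB4 against doxorubicin without ARA-C 0.17 uM replicate 2 (adjusted p = 0.0749), and that of NDUFAF3 without doxorubicin 59.88 nM replicate 2 (adjusted p = 0.19) or puromycin 0.09 uM replicates 1 or 3 (adjusted p = 0.12 and 0.0524). With quantile normalization the first and the last of these were 6 and 3, and 5 and 1, and with centring on the median the last 2 were 0 and 5, and 0 and 1. At day 3 the counts were 1 and 3 for ARA-C against doxorubicin, where 7.03% and 2.32% of all probe sets were, 6 and 7 for ARA-C against puromycin, where 13.9% and 4.79% were, and 5 and 5 for doxorubicin against puromycin, where 9.30% and 6.81% were. Quantile normalization gave 5 and 9 for ARA-C against puromycin, and centring on the median gave 1 and 16, 0 and 48, and 0 and 9. NDUFAF1 was lower under doxorubicin and ARA-C than under puromycin, with differences of -1.05 ± 0.22, adjusted p = 0.00021 and -0.73 ± 0.22, adjusted p = 0.0133 (limma), and between ARA-C and doxorubicin the difference was 0.32 ± 0.22, adjusted p = 0.342. For ARA-C against doxorubicin at 24 h the counts were 0 higher and 0 lower without ARA-C 0.17 uM replicate 2 and 0 higher and 1 lower without doxorubicin 59.88 nM replicate 2. For ARA-C against puromycin at 24 h the counts were 2 higher and 1 lower without ARA-C 0.17 uM replicates 1, 2 or 3 or puromycin 0.09 uM replicate 3. For doxorubicin against puromycin at 24 h the counts were 1 higher and 0 lower without doxorubicin 59.88 nM replicate 1 or puromycin 0.09 uM replicate 1, 0 higher and 0 lower without doxorubicin 59.88 nM replicate 2 or puromycin 0.09 uM replicate 3 and 2 higher and 0 lower without doxorubicin 59.88 nM replicate 3. For ARA-C against doxorubicin at day 3 the counts were 0 higher and 1 lower without ARA-C 0.17 uM replicate 3 and 1 higher and 1 lower without doxorubicin 59.88 nM replicate 2. For doxorubicin against puromycin at day 3 the counts were 1 higher and 5 lower without doxorubicin 59.88 nM replicate 1, 3 higher and 2 lower without doxorubicin 59.88 nM replicate 3, 2 higher and 4 lower without puromycin 0.09 uM replicates 1 or 3 and 3 higher and 3 lower without puromycin 0.09 uM replicate 2. NDUFA2, an accessory subunit, and ATP5IF1 were higher under doxorubicin than under puromycin, by 0.57 ± 0.11, adjusted p = 0.000103 and 0.39 ± 0.13, adjusted p = 0.0248 (limma), the second of which was lost without doxorubicin 59.88 nM replicates 1 or 3 or puromycin 0.09 uM replicates 2 or 3 (adjusted p at most 0.115).

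At day 5 ARA-C 0.17 uM differed from doxorubicin 59.88 nM in 1 gene that was higher and 30 that were lower, where 4.02% and 18.5% of all probe sets were, and with quantile normalization in 4 and 10. From puromycin 0.09 uM it differed in 3 and 47, where 7.94% and 27.3% were, and with quantile normalization in 10 and 19. Doxorubicin differed from puromycin in 3 and 20, where 7.60% and 15.4% were, with quantile normalization in 5 and 11 and with centring on the median in 0 and 23. Of the probe sets with a mean log2 signal of 12 or more, 5.94% were higher and 41.7% lower for ARA-C against doxorubicin. These shares were 15.2% and 54.2% for ARA-C against puromycin, and 10.9971% and 26.6% for doxorubicin against puromycin. Of the 79 genes, 38.0%, 59.5% and 25.3% were lower in that order, near the shares of these bright probe sets. For ARA-C against doxorubicin the counts were 1 higher and 15 lower without ARA-C 0.17 uM replicate 2. For doxorubicin against puromycin the counts were 2 higher and 13 lower without doxorubicin 59.88 nM replicate 3, 2 higher and 12 lower without puromycin 0.09 uM replicate 1 and 1 higher and 7 lower without puromycin 0.09 uM replicate 2. ACTB ratios in these groups were 2.88 to 5.07, 2.13 to 2.93 and 2.10 to 2.45 for ARA-C, doxorubicin and puromycin, so that ARA-C and puromycin did not overlap in this measure, and its part in these differences was not tested. NDUFS7 was lower under ARA-C than under doxorubicin, with a difference of -1.51 ± 0.37, adjusted p = 0.00179, and lower under doxorubicin than under puromycin, with one of -1.56 ± 0.41, adjusted p = 0.00349 (limma). The first difference was -0.44, adjusted p = 0.307 without ARA-C 0.17 uM replicate 2, whose signal lies under the floor, and the second was -1.32, adjusted p = 0.08 without puromycin 0.09 uM replicate 1. The NDUFS7 signals were 95.1, 9.19 and 90.01 for ARA-C, 147, 99.6 and 135 for doxorubicin and 436 and 314 for puromycin. NDUFAF1 had 515, 214 and 579.9 under ARA-C, 588, 529 and 557 under doxorubicin and 1765 and 1569 under puromycin, and was lower under ARA-C and doxorubicin than under puromycin, with differences of -2.06 ± 0.24, adjusted p = 1.14e-09 and -1.58 ± 0.24, adjusted p = 1.03e-06 (limma), whereas ARA-C and doxorubicin differed by -0.48 ± 0.22, adjusted p = 0.106. SDHC and COX5B were lower under ARA-C than under doxorubicin, with differences of -1.15 ± 0.22, adjusted p = 8.41e-05 and -0.90 ± 0.13, adjusted p = 7.4e-07, and NDUFB1 was higher by 0.53 ± 0.12, adjusted p = 0.000776 (limma). UQCR11 was higher under doxorubicin than under puromycin by 0.61 ± 0.15, adjusted p = 0.00115 (limma), a call lost without puromycin 0.09 uM replicate 2 (adjusted p = 0.0666).

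Doubling the dose called none of the 79 genes at 24 h or day 3 for either compound compared, with 9 higher and 6 lower, and 5 and 1, at an unadjusted p under 0.05 for doxorubicin, and 3 and 1, and 0 and 2, for puromycin (limma), where the shares of all probe sets called were 0.221% higher and 0.158% lower, 0.648% and 0.648%, 0.00% and 0.00%, and 0.149% and 0.207%. At day 5, doxorubicin 119.76 nM differed from 59.88 nM in 2 genes that were higher and 23 that were lower, where 6.37% and 23.0% of all probe sets were. Of the probe sets with a mean log2 signal of 12 or more, 7.92% were higher and 43.2% lower. Their median difference was -0.27, against -0.22 for the 79 genes. With quantile normalization 13 of the 79 genes were higher and 3 lower, the 2 groups having ACTB ratios of 4.10 to 5.00 and 2.13 to 2.93. NDUFB4 had 3383 and 4034 at 119.76 nM, against 7466, 6545 and 6909.8 at 59.88 nM, a difference of -0.91 ± 0.13, adjusted p = 2.78e-07 (limma). The difference in SDHC was -1.07 ± 0.25, adjusted p = 0.000662 (limma), or -0.50, adjusted p = 0.0861 after quantile normalization, and ATP5ME was higher by 0.63 ± 0.17, adjusted p = 0.00272. For doxorubicin doses at 24 h the counts were 2 higher and 0 lower without doxorubicin 119.76 nM replicate 1. For doxorubicin doses at day 3 the counts were 0 higher and 1 lower without doxorubicin 119.76 nM replicate 1. For doxorubicin doses at day 5 the counts were 1 higher and 13 lower without doxorubicin 119.76 nM replicate 1. The ARA-C doses lie in different plate rows and were not compared with each other.

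In vehicle cultures alone, day 3 differed from 24 h in 2 genes that were higher and 1 that was lower, where 1.44% and 1.72% of all probe sets were, and with quantile normalization in 6 and 1. At day 5 vehicle differed from day 3 in 13 and 6, where 12.1% and 9.01% were, with quantile normalization in 24 and 5 and with centring on the median in 2 and 6. For day 3 against 24 h the counts were 0 higher and 0 lower without vehicle replicate 6 of day 3. For day 5 against day 3 the counts were 8 higher and 4 lower without vehicle replicate 5 of day 3. NDUFA7 was higher at day 5 than at day 3 by 0.71 ± 0.16, adjusted p = 0.000574, ATP5IF1 by 0.33 ± 0.09, adjusted p = 0.00654, and ATP5MC1 was lower, with a difference of -0.63 ± 0.14, adjusted p = 0.000452 (limma). The day 5 vehicle levels of ATP5MC1 and NDUFA7 differed by plate rows. Under puromycin 0.09 uM at day 5 ATP5MC1 changed by 0.56 against all vehicle arrays and by 0.09 against rows A-F alone. For NDUFA7 these changes were -0.68 and -0.34. Differences between vehicle times within plate rows were not tested. NDUFA6, an accessory complex I subunit, was higher at day 3 than at 24 h by 0.36 ± 0.09, adjusted p = 0.016 (limma), a call lost without vehicle replicate 6 of day 3 (adjusted p = 0.0554). The vehicle level against which treated arrays are read thus differed between times for some members, and the rule set each treated group against vehicle of its own time.

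Other nuclear genes of mitochondria were read beside these, as lists also drawn up with earlier results known. Of 11 measured genes of the tricarboxylic acid cycle, which supplies the NADH and succinate that the chain consumes, 7 were lower at day 5 under ARA-C 0.34 uM, where 13.6% of all probe sets were lower, with a median of -0.52 on the log2 scale. Under ARA-C 0.17 uM 11 were lower, where 38.0% of all probe sets were, or 6 with 1 higher after quantile normalization, and under doxorubicin 59.88 nM 8 were lower and 1 higher, where 29.2% and 12.1% were. Of 47 genes for mitochondrial ribosomal proteins, which translate the subunits encoded in mitochondrial DNA, 21 were lower and 1 higher at day 5 under ARA-C 0.34 uM, with a median of -0.38, and 21 and 3 after quantile normalization. At day 3 in that group 26 were lower, where 8.05% of all probe sets were, and under puromycin 0.09 uM at day 5 2 were lower and 6 higher, where 12.1% and 5.31% were. Under ARA-C 0.34 uM at day 5, 4 of 23 genes for protein import and carriers were lower, as were 2 of 9 genes of pyruvate dehydrogenase and its kinases, and of 20 other genes for assembly of the chain and cytochrome c, none of them a member, 10 were lower and 1 higher. Of 14 regulators of mitochondrial biogenesis 3 were lower and 3 higher in that comparison, with a median of 0.12. In it 13.6% of all probe sets were lower and 11.4% higher. Of those with a mean log2 signal of 12 or more, 17.2% were lower and 16.4% higher. The lists are short, and 4 of 23 and 2 of 9 lower are near such shares.

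For 24 of the 79 genes more than 1 probe set was measured, and these did not always move alike. Under ARA-C 0.34 uM at day 5, no gene had a probe set called in the direction opposite to its brightest. Under ARA-C 0.17 uM at day 5 there were 4 such genes, COX5B, ATP5PO, NDUFB8 and ATP5MG. The brightest COX5B probe set changed by -1.50 and a dim one by 0.78, the brightest ATP5PO probe set by -0.92 and another by 0.67, and that of NDUFB8, an accessory complex I subunit, by 0.38 and another by -0.95. ATP5MG, subunit g of the membrane part, changed by 0.61 on its brightest probe set and by -0.94 on another under doxorubicin 119.76 nM at day 5, and NDUFA6 by 0.48 and -0.57 under ARA-C 0.17 uM at 24 h. On the puromycin 0.18 uM array of day 5, ATP5MC2 changed by -1.71 on the brightest and by 3.29 on a dim probe set. Where probe sets disagreed the value of the gene rests on the brightest one, and NDUFB8 and ATP5MG were named for this disagreement after their values were seen.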

How the data were processed

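RNA of 68 samples was extracted with Trizol and hybridised to Affymetrix high-throughput human arrays, and the authors computed the deposited MAS5 signals, which are linear intensity values scaled to a common mean per array. The MAS5 version is not given in the sources used here. Of 22930 probe sets, 715 controls were left out and 22215 tested, of which 19230 carry 1 gene symbol in the platform annotation, 125 several and 2860 none. Signals were raised to a floor of 10, as in the study's methods, and taken to log2 without the study's cap. The 67 arrays left after the rule were fitted as 21 group means with limma 3.58.1 in R 4.3.3 (intensity trend, 46 residual degrees of freedom), so that groups of 1 or 2 arrays are assumed to vary like the others. p-values were adjusted over all probe sets by Benjamini-Hochberg, with a threshold of 0.05. The fit was tested on simulated data. Plate rows were read from the array names in the study's sample list and used as an alternative, beside quantile normalization, centring on the median, other floors, single arrays left out and the ACTB ratio as a covariate. The members and all gene lists were chosen with earlier results of these data known. Genes named are the core subunits, the isoform sets, ATP5IF1, NDUFAF1 and, per comparison, up to 5 members with the largest rise and up to 5 with the largest fall past the threshold. The number of arrays limits the precision.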

Additional observations from a re-analysis of the deposited data

Results flagged for a closer look

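Among 174 groups of 5 or 6 vehicle arrays tested gene by gene, 8 held an array far from the others. Chance alone gives such a gap in about 1 group in 20, and 8 of 174 is near that share. At 24 h NDUFA9 stood at a log2 signal of 12.82 on vehicle replicate 1, with the other arrays between 12.52 and 12.61, and replicate 2 was low for ATP5F1E at 13.39 (others 13.56 to 13.65) and for COX6B1 at 13.17 (others 13.37 to 13.44). At day 3 vehicle replicate 2 was low for NDUFS1 at 11.59 (others 11.69 to 11.73) and for UQCRC1 at 12.43 (others 12.84 to 12.97), replicate 4 was low for SDHC at 12.24 (others 12.46 to 12.48) and replicate 1 for COX5B at 12.18 (others 12.43 to 12.51). At day 5 vehicle replicate 3 was low for SDHAF3 at 8.42, with the others between 8.86 and 9.04.

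Tests of the difference between compounds at their EC50 doses called some of the 79 genes at every time (limma). ARA-C against doxorubicin, ARA-C against puromycin and doxorubicin against puromycin called 3, 5 and 4 genes at 24 h, 4, 13 and 10 at day 3, and 31, 50 and 23 at day 5, in that order. The puromycin 0.09 uM array of day 5 that was not used in the comparisons had an HBB signal of 30546, against at most 105.656 on vehicle arrays.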

How the results depend on the processing

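Values that moved by over 1.5 times, or medians that moved beyond the SD between arrays, are given by setting, and the cause was not tested for any of them. With quantile normalization the number of genes called was 7 for ARA-C 0.34 uM 24 h, 13 for doxorubicin 59.88 nM 24 h, 23 for puromycin 0.09 uM day 5, 11 for puromycin 0.18 uM 24 h, 9 for ARA-C 0.17 uM against doxorubicin 59.88 nM 24 h, 16 for doxorubicin 59.88 nM against puromycin 0.09 uM day 3, 14 for ARA-C 0.17 uM against doxorubicin 59.88 nM day 5, 29 for ARA-C 0.17 uM against puromycin 0.09 uM day 5, 2 for doxorubicin 119.76 nM against 59.88 nM 24 h, 3 for doxorubicin 119.76 nM against 59.88 nM day 3, 16 for doxorubicin 119.76 nM against 59.88 nM day 5, 7 for vehicle day 3 against 24 h and 29 for vehicle day 5 against day 3. The median change was -0.054 for ARA-C 0.17 uM day 3, -0.18 for ARA-C 0.17 uM day 5, -0.048 for doxorubicin 119.76 nM day 5, -0.053 for puromycin 0.18 uM day 5, -0.0044 for ARA-C 0.17 uM against doxorubicin 59.88 nM day 5, -0.060 for ARA-C 0.17 uM against puromycin 0.09 uM day 5, -0.033 for doxorubicin 59.88 nM against puromycin 0.09 uM day 5 and 0.070 for doxorubicin 119.76 nM against 59.88 nM day 5. With each array centred on its median the number of genes called was 6 for ARA-C 0.17 uM 24 h, 39 for ARA-C 0.17 uM day 3, 26 for ARA-C 0.34 uM 24 h, 20 for ARA-C 0.34 uM day 5, 0 for doxorubicin 59.88 nM 24 h, 8 for doxorubicin 59.88 nM day 3, 8 for doxorubicin 119.76 nM 24 h, 9 for doxorubicin 119.76 nM day 3, 0 for puromycin 0.09 uM day 3, 40 for puromycin 0.09 uM day 5, 1 for puromycin 0.18 uM 24 h, 2 for puromycin 0.18 uM day 3, 28 for puromycin 0.18 uM day 5, 0 for ARA-C 0.17 uM against doxorubicin 59.88 nM 24 h, 1 for doxorubicin 59.88 nM against puromycin 0.09 uM 24 h, 17 for ARA-C 0.17 uM against doxorubicin 59.88 nM day 3, 48 for ARA-C 0.17 uM against puromycin 0.09 uM day 3, 14 for ARA-C 0.17 uM against doxorubicin 59.88 nM day 5, 10 for doxorubicin 119.76 nM against 59.88 nM day 5, 0 for vehicle day 3 against 24 h and 8 for vehicle day 5 against day 3. The median change was -0.45 for ARA-C 0.17 uM day 3, -0.11 for ARA-C 0.17 uM day 5, -0.42 for ARA-C 0.34 uM 24 h, -0.21 for ARA-C 0.34 uM day 3, 0.22 for doxorubicin 59.88 nM day 5, 0.010 for doxorubicin 119.76 nM day 5, 0.30 for puromycin 0.09 uM 24 h, 0.16 for puromycin 0.09 uM day 3, 0.51 for puromycin 0.09 uM day 5, 0.076 for puromycin 0.18 uM 24 h, 0.070 for puromycin 0.18 uM day 3, -0.18 for puromycin 0.18 uM day 5, -0.24 for ARA-C 0.17 uM against puromycin 0.09 uM 24 h, -0.24 for doxorubicin 59.88 nM against puromycin 0.09 uM 24 h, -0.35 for ARA-C 0.17 uM against doxorubicin 59.88 nM day 3, -0.60 for ARA-C 0.17 uM against puromycin 0.09 uM day 3, -0.22 for doxorubicin 59.88 nM against puromycin 0.09 uM day 3, -0.23 for ARA-C 0.17 uM against doxorubicin 59.88 nM day 5, -0.57 for ARA-C 0.17 uM against puromycin 0.09 uM day 5, -0.33 for doxorubicin 59.88 nM against puromycin 0.09 uM day 5, -0.21 for puromycin 0.18 uM against 0.09 uM 24 h, -0.10 for puromycin 0.18 uM against 0.09 uM day 3 and -0.11 for vehicle day 5 against day 3. Against vehicle arrays of the same plate rows the number of genes called was 8 for ARA-C 0.17 uM day 3, 0 for ARA-C 0.34 uM 24 h, 10 for doxorubicin 119.76 nM day 3, 1 for puromycin 0.09 uM day 5, 8 for puromycin 0.18 uM 24 h and 3 for puromycin 0.18 uM day 3. The median change was -0.59 for ARA-C 0.17 uM day 5, -0.24 for doxorubicin 59.88 nM day 5, -0.58 for doxorubicin 119.76 nM day 5 and -0.038 for puromycin 0.09 uM day 5. With plate rows as a block the number of genes called was 3 for doxorubicin 59.88 nM 24 h, 0 for puromycin 0.09 uM day 3, 9 for puromycin 0.09 uM day 5 and 3 for puromycin 0.18 uM 24 h. The median change was -0.22 for doxorubicin 59.88 nM day 5 and -0.50 for doxorubicin 119.76 nM day 5. With the ACTB ratio as a covariate, chosen after seeing the data, the number of genes called was 9 for ARA-C 0.17 uM 24 h, 7 for ARA-C 0.34 uM 24 h, 31 for doxorubicin 119.76 nM day 5, 1 for puromycin 0.09 uM day 3, 6 for puromycin 0.09 uM day 5 and 12 for puromycin 0.18 uM day 3. With the left-out puromycin array kept the number of genes called was 4 for ARA-C 0.17 uM 24 h, 5 for ARA-C 0.17 uM day 3, 0 for ARA-C 0.34 uM 24 h, 7 for ARA-C 0.34 uM day 3, 11 for ARA-C 0.34 uM day 5, 1 for doxorubicin 59.88 nM 24 h, 4 for doxorubicin 59.88 nM day 3, 25 for doxorubicin 59.88 nM day 5, 6 for doxorubicin 119.76 nM 24 h, 4 for doxorubicin 119.76 nM day 3, 39 for doxorubicin 119.76 nM day 5, 2 for puromycin 0.09 uM 24 h, 0 for puromycin 0.09 uM day 3, 52 for puromycin 0.09 uM day 5, 1 for puromycin 0.18 uM 24 h, 1 for puromycin 0.18 uM day 3, 30 for puromycin 0.18 uM day 5, 0 for ARA-C 0.17 uM against doxorubicin 59.88 nM 24 h, 0 for ARA-C 0.17 uM against puromycin 0.09 uM 24 h, 0 for doxorubicin 59.88 nM against puromycin 0.09 uM 24 h, 0 for ARA-C 0.17 uM against doxorubicin 59.88 nM day 3, 2 for ARA-C 0.17 uM against puromycin 0.09 uM day 3, 2 for doxorubicin 59.88 nM against puromycin 0.09 uM day 3, 12 for ARA-C 0.17 uM against doxorubicin 59.88 nM day 5, 30 for ARA-C 0.17 uM against puromycin 0.09 uM day 5, 7 for doxorubicin 119.76 nM against 59.88 nM day 5, 0 for vehicle day 3 against 24 h and 3 for vehicle day 5 against day 3. With only the arrays of a comparison in the fit the number of genes called was 10 for ARA-C 0.34 uM 24 h, 3 for doxorubicin 59.88 nM 24 h, 26 for doxorubicin 59.88 nM day 3, 1 for puromycin 0.09 uM day 3 and 1 for puromycin 0.09 uM day 5. Without dim probe sets the number of genes called was 4 for puromycin 0.09 uM day 3 and 8 for puromycin 0.18 uM 24 h. The median change was -0.51 for doxorubicin 119.76 nM day 5. With no floor the number of genes called was 1 for ARA-C 0.34 uM 24 h and 1 for puromycin 0.09 uM day 3. With no intensity trend the number of genes called was 0 for ARA-C 0.34 uM 24 h and 1 for puromycin 0.09 uM day 3. With the median over the probe sets of a gene the number of genes called was 1 for puromycin 0.09 uM day 3. Without arrays whose 10th percentile of log2 signal was above 4, chosen after seeing the data, the number of genes called was 0 for ARA-C 0.34 uM 24 h. The replicate numbers do not pair samples: deviations of same-numbered arrays from their group means had a median correlation of -0.003 over 514 pairs, and differently numbered ones 0.002 over 1028. With a replicate block the number called was 12 for ARA-C 0.17 uM 24 h, 15 for doxorubicin 119.76 nM 24 h, 0 for puromycin 0.09 uM day 3, 3 for puromycin 0.18 uM 24 h and 4 for puromycin 0.18 uM day 3, and within 1.5 times the main count elsewhere. Leaving out each array in turn, the number called ran from 8 to 20 for ARA-C 0.17 uM 24 h, from 0 to 2 for ARA-C 0.34 uM 24 h, from 1 to 12 for doxorubicin 59.88 nM 24 h, from 10 to 25 for doxorubicin 119.76 nM 24 h, from 5 to 16 for puromycin 0.09 uM 24 h, from 3 to 6 for puromycin 0.18 uM 24 h, from 0 to 4 for vehicle day 3 against 24 h, from 12 to 20 for ARA-C 0.17 uM day 3, from 16 to 22 for ARA-C 0.34 uM day 3, from 9 to 14 for doxorubicin 59.88 nM day 3, from 10 to 16 for doxorubicin 119.76 nM day 3, from 0 to 2 for puromycin 0.09 uM day 3, from 2 to 8 for puromycin 0.18 uM day 3, from 12 to 21 for vehicle day 5 against day 3, from 57 to 58 for ARA-C 0.17 uM day 5, from 24 to 35 for ARA-C 0.34 uM day 5, from 41 to 48 for doxorubicin 59.88 nM day 5, from 53 to 62 for doxorubicin 119.76 nM day 5, from 2 to 21 for puromycin 0.09 uM day 5, from 49 to 50 for puromycin 0.18 uM day 5, from 0 to 4 for ARA-C 0.17 uM against doxorubicin 59.88 nM 24 h, from 3 to 6 for ARA-C 0.17 uM against puromycin 0.09 uM 24 h, from 1 to 6 for ARA-C 0.17 uM against doxorubicin 59.88 nM day 3, from 9 to 11 for ARA-C 0.17 uM against puromycin 0.09 uM day 3, from 16 to 39 for ARA-C 0.17 uM against doxorubicin 59.88 nM day 5, from 43 to 50 for ARA-C 0.17 uM against puromycin 0.09 uM day 5, from 0 to 3 for doxorubicin 59.88 nM against puromycin 0.09 uM 24 h, from 0 to 2 for doxorubicin 119.76 nM against 59.88 nM 24 h, from 5 to 9 for doxorubicin 59.88 nM against puromycin 0.09 uM day 3, from 0 to 1 for doxorubicin 119.76 nM against 59.88 nM day 3, from 8 to 19 for doxorubicin 59.88 nM against puromycin 0.09 uM day 5, from 14 to 22 for doxorubicin 119.76 nM against 59.88 nM day 5, from 0 to 0 for puromycin 0.18 uM against 0.09 uM 24 h and from 0 to 0 for puromycin 0.18 uM against 0.09 uM day 3. With quantile normalization 7 values changed sign: ATP5IF1 0.37 for puromycin 0.18 uM day 5, NDUFA9 0.020 for doxorubicin 119.76 nM day 5, NDUFA9 0.22 for puromycin 0.18 uM day 5, NDUFAF1 0.21 for puromycin 0.18 uM day 5, NDUFS3 0.20 for puromycin 0.18 uM day 5, SDHA 0.41 for puromycin 0.18 uM day 5 and SDHD 0.16 for puromycin 0.18 uM day 5. Of the 257 changes against vehicle called among the named genes, 220 passed with quantile normalization, 30 did not and 7 reversed, and 198 passed within plate rows, 59 did not and none reversed. Arrays give no counting depth, and genes near the floor of 10 could show no fall.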
